A study of Drosophila melanogaster with 3 samples.

Results

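Mitochondrial respiratory chain genes were examined in a ChIP-seq study of the ecdysone receptor EcR in whole Drosophila melanogaster pupae. The 86 genes were the nuclear protein-coding genes whose symbols begin with ND- (40 genes, complex I), SdhA to SdhD (7, complex II), UQCR- (9, complex III), COX and a digit (15, complex IV) or ATPsyn (15, complex V), out of 13945 protein-coding genes on chromosomes 2L, 2R, 3L, 3R, 4 and X. COX7AL2 was left out. Of the 86, 63 are called main subunits here and 23 copies. Most copies carry the symbol of a main subunit followed by L, L1 or L2. The exceptions are COX6AL, COX6AL2, COX6CL and ATPsynepsilonL, which were paired with levy, cype and sun, genes outside the symbol rule. Expression was not measured.

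The chromatin came from the EcR-GFP strain, a transgenic line with GFP fused to the C-terminus of EcR, and was precipitated with an antibody against GFP. All 3 biological replicates were pupae aged 24 hours with males and females pooled, so they form a single group with no other stage, hormone treatment or tissue to compare. A whole animal mixes every tissue, and a peak does not say which cells carried it. Peaks were read from the optimal list of 9095 peaks and from the pooled list of 30000, of which the optimal peaks are the 9095 strongest.

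The respiratory chain moves electrons from NADH and succinate to oxygen and uses the proton gradient so made to produce ATP. Complex I takes electrons from NADH, complex II from succinate, complex III passes them to cytochrome c, complex IV reduces oxygen, and complex V is the ATP synthase. Most of the subunits are encoded in the nucleus. EcR, with its partner Ultraspiracle, is the nuclear receptor for the steroid 20-hydroxyecdysone, whose pulses time moulting and metamorphosis. Several nuclear genes for mitochondrial proteins in Drosophila have duplicates that are expressed mainly in testis.

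In the optimal list, 9 of the 86 genes (10.5%) had a summit, the highest point of a peak, within 500 bp of an annotated start, against 19.3% of all protein-coding genes. These were SdhA of complex II, ND-51 and ND-ASHI of complex I, COX5A, COX6B, COX7B and COX7C of complex IV, and ATPsynC and ATPsynF of complex V. Complex III had 0 of 9. Counting summits anywhere in a gene or in the 2 kb before it, 15 of the 86 genes (17.4%) held a summit, against 30.7% of all protein-coding genes. Gene length bears on that count, since the median region was 3097 bp for the respiratory genes and 4166 bp for all genes. Among regions of up to 10 kb the shares were 14 of 85 genes (16.5%) and 25.0% of all genes. The promoter background was also lower among these shorter regions, at 15.7% of all genes, beside 9 of 85 respiratory genes (10.6%).

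Each replicate gave the same order when its own 9095 strongest peaks were used. Promoter summits lay at 6 respiratory genes in replicate 1, 10 in replicate 2 and 7 in replicate 3, a mean of 8.91% ± 2.42 (SD, n = 3), against 18.9% ± 0.557 (SD, n = 3) for all protein-coding genes. The respiratory share was lower in 3 of 3 replicates, with a mean difference of -10.0 percentage points (SD 2.09), and the single differences were -12.0, -7.83 and -10.2 points. An exact two-sided sign-flip permutation test gave p = 0.25, the smallest that 3 replicates allow, so the design cannot pass 0.05. Against only the genes with regions of up to 10 kb, at 15.2% ± 0.519 (SD, n = 3), the mean difference shrank to -6.33 points (SD 2.15). Its single values were -8.37, -4.08 and -6.54 points. Over the gene region the replicates held 14, 17 and 13 respiratory genes, a mean of 17.1% ± 2.42 (SD, n = 3), against 30.4% ± 0.444 (SD, n = 3).

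In the pooled list, which reaches down to weak peaks, 36 of the 86 genes (41.9%) had a promoter summit against 40.4% of all protein-coding genes, and 45 (52.3%) had one in the gene region against 50.4%. Both shares were close to the background, and the main subunits and copies differed. Of the 63 main subunits 35 (55.6%) had a pooled promoter summit, and of the 23 copies 1 did (4.35%). In the replicates' full lists of 30000 peaks, promoter summits lay at 33, 38 and 34 main subunits, a mean of 55.6% ± 4.2 (SD, n = 3), and at 1 copy in each replicate, beside 40.7% ± 1.57 (SD, n = 3) of all protein-coding genes. Among the stronger 15000 pooled peaks the excess of main subunits over all genes was lost, at 19 of 63 (30.2%) and 29.1%. The copies stayed at 1 of 23. Among the pooled peaks with a deposited −log10 q of at least 2 the excess remained, at 31 of 63 (49.2%) and 37.4%. Strong promoter summits lay at 9 of the 63 main subunits (14.3%) and 0 of the 23 copies in the optimal list, and at 1 copy, COX6AL, in replicate 2's own strong list. The optimal share was 19.3% over all protein-coding genes and 15.7% over those with regions of up to 10 kb.

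**Figure D1:**
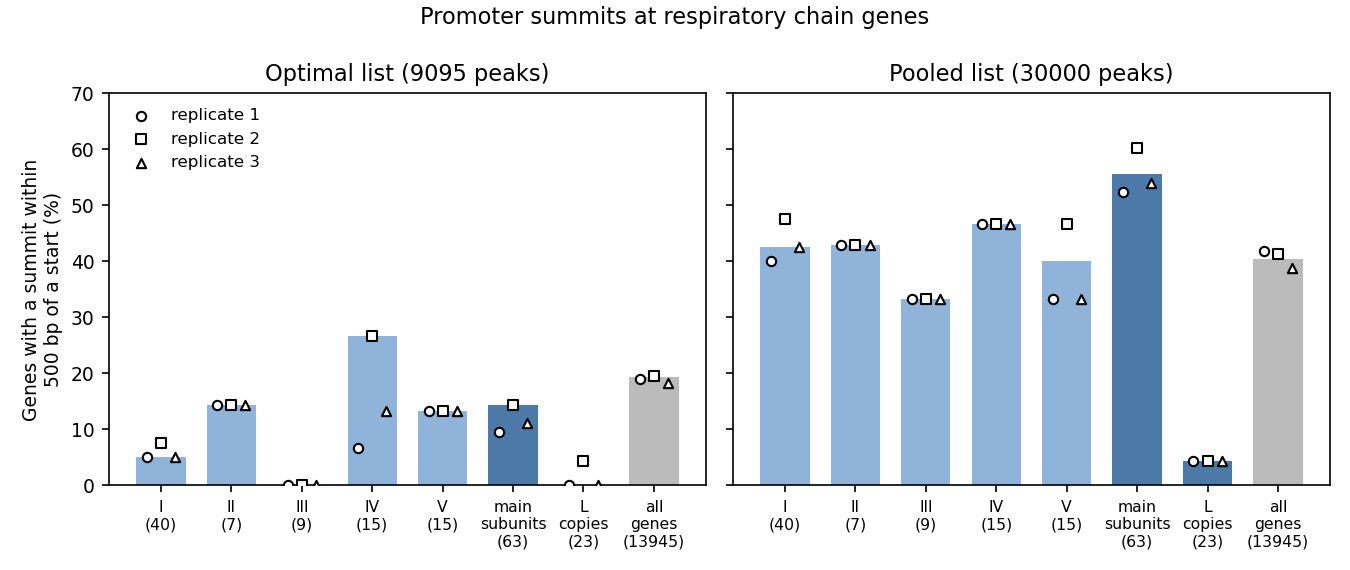
Share of genes with a summit within 500 bp of a start, in percent, for each complex, the main subunits, the copies and all protein-coding genes, in the optimal and the pooled list, with points for the 3 replicates. Main subunits reached 55.6% in the pooled list and 14.3% in the optimal list, and the copies 4.35% and 0.

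Peaks of 6 genes are shown first as sequence. ATPsyndelta and SdhC had the strongest peaks of any respiratory gene region, both upstream of the promoter, and ATPsynC, ND-ASHI, ND-51 and COX7B give examples of promoter peaks from complexes V, I and IV. The strongest promoter peaks of the set, at SdhA and COX7C, are described without sequence. They were read from the RefSeq Release 6 genome (dm6) on the strand of the gene, and the capital marks the summit base, except at SdhC, where the capitals mark a receptor hexamer (AGGTCA on the other strand) beside the summit. SdhC is given in fewer bases because the summit lies in a 3′ UTR of its neighbour. The intervals are X:10211480-10211600 for ATPsyndelta (plus strand), 3R:11211498-11211526 for SdhC (minus), 3R:31218551-31218671 for ATPsynC (minus), X:6679344-6679464 for ND-ASHI (minus), 2L:6062810-6062930 for ND-51 (minus) and 3L:17425332-17425452 for COX7B (plus).
ATPsyndelta: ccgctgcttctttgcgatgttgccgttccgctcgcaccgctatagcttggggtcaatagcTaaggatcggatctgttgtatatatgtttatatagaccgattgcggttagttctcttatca
SdhC: ctgcgcaTGACCTccaaaatgtccaatga
ATPsynC: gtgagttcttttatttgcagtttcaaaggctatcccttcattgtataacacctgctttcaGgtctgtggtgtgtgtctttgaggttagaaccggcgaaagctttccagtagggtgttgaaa
ND-ASHI: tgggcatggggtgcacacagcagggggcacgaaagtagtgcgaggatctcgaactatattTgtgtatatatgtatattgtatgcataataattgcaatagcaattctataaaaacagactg
ND-51: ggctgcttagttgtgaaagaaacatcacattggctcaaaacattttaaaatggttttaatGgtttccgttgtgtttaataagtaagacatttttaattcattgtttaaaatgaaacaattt
COX7B: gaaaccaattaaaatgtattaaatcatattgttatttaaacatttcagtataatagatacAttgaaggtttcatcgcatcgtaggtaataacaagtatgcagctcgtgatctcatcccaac

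SdhA encodes the flavoprotein subunit of succinate dehydrogenase, which oxidises succinate in both the citrate cycle and the respiratory chain. It had the strongest promoter peak of the set. The peak spanned 1104 bp (2R, 19395809 to 19396912), with its summit at 19396128, 157 bp upstream of the only annotated SdhA start. It ranked 702 in the pooled list and 697, 699 and 741 in replicates 1, 2 and 3, so the replicates placed it almost alike. The start of asRNA:CR45925, an antisense RNA gene, also lay within 500 bp of that summit, though SdhA was nearer. A weaker summit of the same peak lay 356 bp upstream and ranked 2332, with replicate ranks of 1924, 2142 and 3897. It sat in the 3′ UTR of cer, whose start was within 500 bp, and was nearest to the start of asRNA:CR45925, at 173 bp.

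Among the other complex II genes, SdhC, which encodes a membrane anchor of the enzyme, had 3 optimal summits in its region and none within 500 bp of its start. The strongest (3R, 11211129 to 11211963, summit 11211512) lay 1663 bp upstream, inside the 3′ UTR of Tctp, and ranked 460 in the pooled list and 386, 599 and 474 in the replicates. Tctp encodes the translationally controlled tumour protein, and its start was 1265 bp from the summit and nearer than that of SdhC. The weakest of the 3, at rank 5257, lay in the 3′ UTR of SdhC, 908 bp downstream of its start, with replicate ranks of 3983, 5009 and 7159. In the pooled list only, SdhC also had a weak summit 438 bp upstream of its start and 40 bp from that of Tctp. It ranked 12551 there and 10531, 14496 and 12202 in the replicates. SdhD, the other anchor gene, had a weak summit 40 bp upstream of its start at rank 17899, and the nearest summit to SdhB, the iron-sulphur subunit gene, was 18446 bp away in both lists.

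Complex IV had the highest share of strong promoters, 4 of 15 genes (26.7%), all of them among its 8 main subunits. That share was not steady. The replicates' own strong lists held 1, 4 and 2 of the 15 genes, a mean of 15.6% ± 10.2 (SD, n = 3), whose spread takes in the 18.9% of all protein-coding genes. COX7C, a small structural subunit gene of cytochrome c oxidase, was the gene that replicates shared. Its stronger summit (2R, peak 10047855 to 10048678, summit 10048174) lay 179 bp upstream in an intron of oys and ranked 1243 in the pooled list and 1176, 1292 and 1449 in the replicates. Its weaker summit lay 28 bp downstream of the start in the 5′ UTR at rank 6632, with replicate ranks of 5191, 14872 and 5233, the replicate 2 value being the low one. COX7CL, a copy that begins 281 bp past the end of COX7C, has that weaker summit in its region, 1967 bp upstream, and was the 1 copy of 23 with an optimal summit in its region.

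The other 3 complex IV promoter peaks stood near the end of the optimal list. COX6B, which encodes a subunit on the intermembrane-space side, had a summit in an intron 78 bp downstream of its start (X, 19744019 to 19744494, summit 19744257), at rank 7091 and at 9653, 4813 and 16665 in the replicates. The start of CG18809 was equally near. COX7B had a summit 85 bp upstream (3L, 17425154 to 17425629, summit 17425392), at rank 8402 and at 17232, 8040 and 9478. Both genes were thus strong in replicate 2 alone. COX5A, a matrix-side subunit gene, had its summit 451 bp upstream (3R, 11818412 to 11819138, summit 11818908), inside a coding exon of glo, whose start was nearer at 196 bp, and it ranked 8367 in the pooled list and 10524, 9657 and 6998 in the replicates, strong in replicate 3 alone.

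Complex V had strong promoter summits at 2 of 15 genes (13.3%), and the share was the same in each replicate's own list, 13.3% ± 0 (SD, n = 3). ATPsynC encodes subunit c, which forms the rotating ring in the membrane. Its stronger summit (3R, 31218141 to 31218896, summit 31218611) lay in an intron 440 bp downstream of a start and ranked 1991 in the pooled list and 2534, 3672 and 1210 in the replicates. A separate peak (3R, 31219277 to 31219673, summit 31219445) lay in the 5′ UTR, 114 bp downstream of another start, at rank 3662 and at 3951, 3406 and 4346. The start of the microRNA gene mir-4949 was nearer to that summit, at 73 bp. ATPsynF, for a small membrane-sector subunit, had a summit 204 bp upstream (2R, 24599923 to 24600170, summit 24600025) and 78 bp from the start of CG3548. It ranked 5900 in the pooled list and 6681 and 4076 in replicates 1 and 2, and in replicate 3 the nearest summit was 142 bp away, past the 100 bp used to match replicates.

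ATPsyndelta, a gene for a subunit of the central stalk, had the strongest peak in any respiratory gene region but not at its promoter. The peak spanned 1931 bp (X, 10210487 to 10212417) with its summit at 10211540, 1430 bp upstream of the ATPsyndelta start in an intron of Ypel. Its signal value, the peak height as deposited, was 6428, its pooled rank was 74, and its replicate ranks were 79, 64 and 80. The start of Ypel was nearer, at 834 bp. ATPsynG, for another membrane-sector subunit, had a summit 824 bp upstream in an intron of SCAR (2L, summit 10977223), at rank 4061 and at 5529, 5399 and 2915, and the SCAR start was nearer, at 451 bp.

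Complex I is the largest complex, and 2 of its 40 genes (5%) had a strong promoter summit, with a replicate mean of 5.83% ± 1.44 (SD, n = 3). ND-51 encodes the flavoprotein that accepts electrons from NADH. Its summit (2L, 6062632 to 6063107, summit 6062870) lay 113 bp upstream, nearer to ND-51 than to any other start, and ranked 6442 in the pooled list and 9760, 7528 and 5692 in the replicates. ND-ASHI encodes an accessory subunit. Its summit (X, 6678886 to 6679879, summit 6679404) lay 286 bp upstream and 236 bp from the start of Fum1, in whose intron it sits. It ranked 3545 in the pooled list and 4029 and 3243 in replicates 1 and 3, while replicate 2 had no summit within 100 bp, the nearest being 217 bp away. Fum1 encodes fumarase of the citrate cycle.

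The catalytic core of complex I has 7 nuclear genes. The 3 genes of the NADH-oxidising part all had a promoter summit, strong at ND-51 and weak at ND-75 (71 bp upstream, rank 15675) and ND-24 (44 bp upstream, rank 15052). The 4 genes of the quinone-reducing part, ND-49, ND-30, ND-23 and ND-20, had none in either list, although ND-23 had one in the full list of all 3 replicates. Of the 7 core genes together, 1 had a strong promoter summit, 2 a weak one and 4 neither. Of the other 27 main subunits of complex I, 1 had a strong and 13 a weak promoter summit. Over all protein-coding genes, 19.3% had a strong promoter summit and 40.4% a pooled one, strong or weak. The core was divided after its values were seen, and no test was made of these few genes. ND-15 and ND-39 held optimal summits only elsewhere in their regions. ND-15 is annotated over 43305 bp with its upstream part, and its 9 optimal summits all lay in introns, several of them near the starts of other genes nested there. The strongest (2L, summit 121556), at rank 1203 and at 988, 856 and 2079 in the replicates, was 198 bp from the start of CG4822. At the ND-15 start itself there was a weak summit 87 bp upstream, at rank 18774. The ND-39 summit (3L, 20493663, rank 5877) lay in an intron, 173 bp from the start of ZnT77C.

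**Figure D2:**
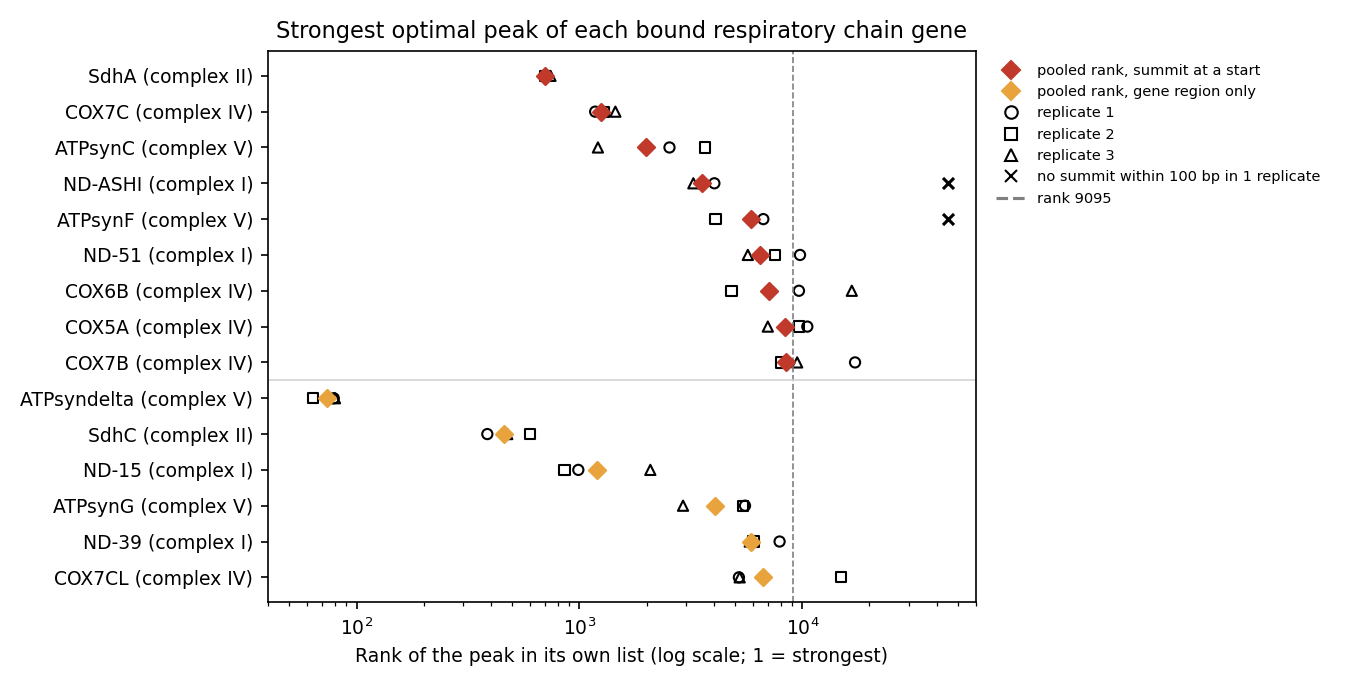
Rank of each strong peak in the pooled list and in replicates 1, 2 and 3, on a log axis where lower is stronger. ATPsyndelta (rank 74), SdhC (460) and SdhA (702) kept close ranks in the replicates, crosses mark ND-ASHI in replicate 2 and ATPsynF in replicate 3, where no summit lay within 100 bp, and the COX7CL peak is the weaker COX7C summit.

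Of the 9 genes with a strong promoter summit, 7 (77.8%) had another protein-coding gene starting within 500 bp of the strongest one, against 33.3% of the 2693 protein-coding genes of that kind. In 3 of the 9 that summit was nearer to another gene's start (glo, Fum1 and CG3548), against 17.6% of all. For all 6 genes with an optimal summit in the region only, the strongest such summit was nearest to another gene's start, against 60.3% of the 1590 protein-coding genes of that kind. No test was made of these counts, which rest on few genes. The strong promoter peaks were also weaker than usual, with a median rank of 5900 against 4605 for all protein-coding genes with one. Summits within 100 bp among the 9095 strongest of a replicate were found in all 3 replicates for 3 of the 9 (SdhA, COX7C and ATPsynC), in 2 for 3 and in 1 for 3.

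Weak promoter summits, those in the pooled list but not the optimal one, lay at 27 genes, 26 main subunits and the copy COX6AL. Their ranks ran from 9387 to 27634 with a median of 15675, close to the median of 15480 for the 2946 protein-coding genes of the same kind. Of the 27, 19 (70.4%) had a summit within 100 bp in all 3 replicates, against 53.9% of those 2946 genes. In 5 it was found in 2 replicates, in 2 genes in 1, and at ND-42 in 0. The deposited −log10 q was under 2 at 4 of the 27 (14.8%, all genes of the same kind 14.4%), with the lowest at 1.23. Most of these summits, 25 of 27, were in peaks 476 bp wide.

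The strongest of the weak summits belonged to genes of every complex. ND-B8, an accessory complex I gene, had one 110 bp upstream at rank 9387, with replicate ranks of 8063, 9006 and 15052, but the start of Secp43 was nearer. ND-B22 had a summit 8 bp upstream, at rank 10924 and at 11308, 9842 and 15515. COX5B, a subunit gene of complex IV, had one 146 bp upstream at rank 11744, with 12381 and 13013 in replicates 1 and 3 and none within 100 bp in replicate 2. Of these 3 genes, ND-B8 ranked among the 9095 strongest peaks in replicates 1 and 2, and the others in none. COX6AL, at rank 12245 and at 11171, 7188 and 20011, was the exception among the copies, and its summit lay 353 bp downstream of the start in a coding exon. ND-MWFE followed at rank 12293, with 17309, 14029 and 10421, and its summit was nearest to the start of TppII. ATPsynD, for a stalk subunit, had a summit 13 bp downstream at rank 12313, with 12802, 13909 and 14342.

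Complex III had no strong summit anywhere in its gene regions, and its weak ones lay at 3 genes. UQCR-C2, a core subunit gene, had a summit 8 bp upstream, at rank 12526 and at 10298, 14516 and 16007 in the replicates. UQCR-6.4 had one 137 bp downstream in an intron at rank 13010, with 13277, 13439 and 15599. UQCR-14 had one 24 bp upstream at rank 18442. The nearest summit to UQCR-C1, the other core gene, was 36327 bp away in both lists. In complex IV, COX4 had a summit 14 bp upstream at rank 12942, with 12373, 14702 and 16566.

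**Figure D3:**
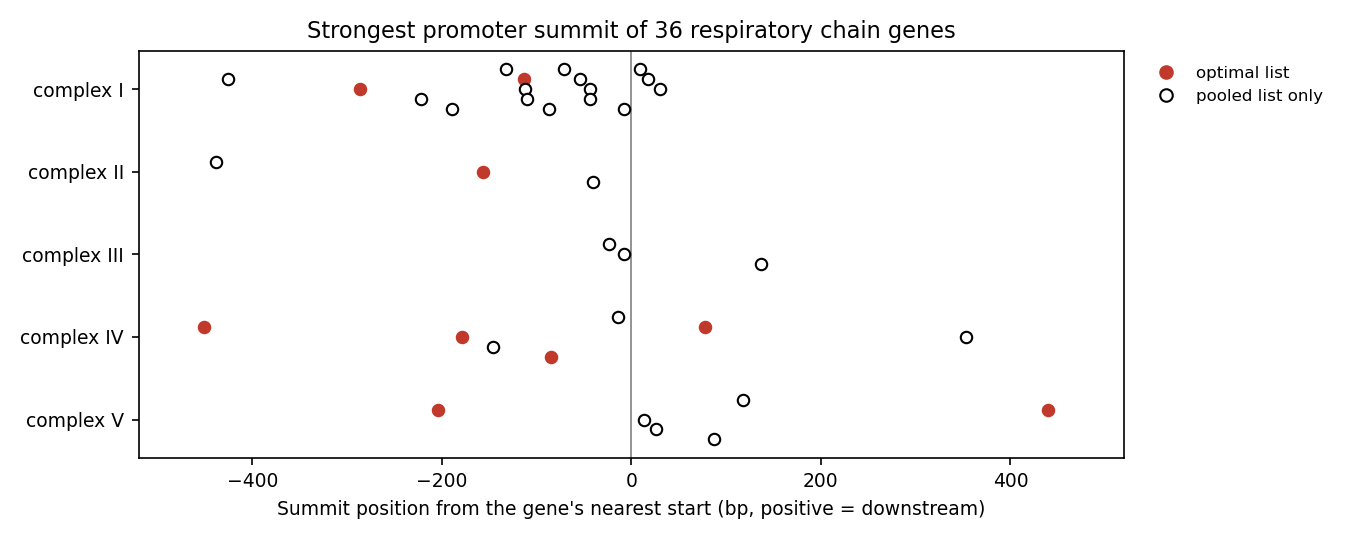
Position of the strongest promoter summit of each of 36 respiratory genes, in bp from the nearest start of the gene with downstream positive, by complex, with filled points for the optimal list and open points for the pooled list only. Of the open points 22 of 27 lay within 150 bp of the start, and of the filled points 3 of 9.

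The weak summits sat closer to the start than the strong ones. Among the 27 weak ones the median distance was 71 bp (8 to 438), and 22 (81.5%) lay within 150 bp, against 58.2% of the weak summits of all protein-coding genes with a median of 116 bp. Among the 9 strong ones the median was 179 bp (78 to 451), and 3 (33.3%) lay within 150 bp, against 52.9% of all genes with a median of 142 bp. These are counts over genes, which are not replicates, and no test was made of them. The weak summits were nearest to the respiratory gene's own start in 21 of 27 cases (77.8%), close to the 80.1% of all protein-coding genes of the same kind.

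The median distance from a start to the nearest optimal summit was 4432 bp for main subunits, 5876 bp for all protein-coding genes and 15761 bp for copies. Within 500 bp the shares were 14.3%, 19.3% and 0, and within 5000 bp they were 57.1%, 46.5% and 21.7%, so the order of main subunits and all genes changed with distance. The nearest strong summit to any copy's start was 1967 bp away, at COX7CL. A few main subunits lay very far from any summit. ND-AGGG and UQCR-11, on 3L at 24976254 and 25120709, had the nearest optimal summit 2028174 and 2172629 bp away, and ND-MLRQ, on 3L at 23339326, had it 391246 bp away. ATPsynbeta, for the catalytic ATP synthase subunit, lies on chromosome 4, with the nearest optimal summit 198342 bp away and a pooled one 2458 bp away.

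**Figure D4:**
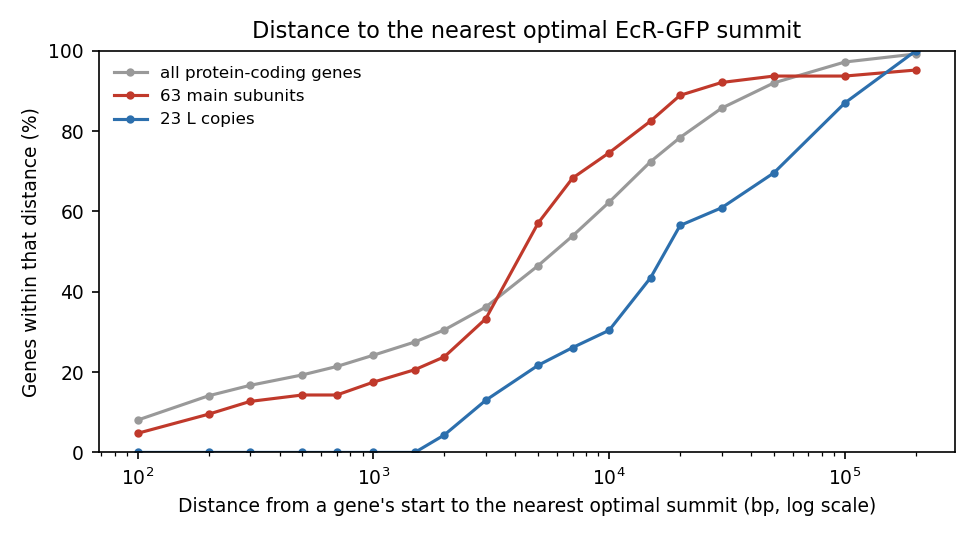
Cumulative share of genes, in percent, against the distance from a start to the nearest optimal summit in bp on a log axis, for main subunits, copies and all protein-coding genes. At 500 bp main subunits stood at 14.3% and all genes at 19.3%, and at 5000 bp they stood at 57.1% and 46.5%.

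The copies were set against the genes they are paired with. The 23 copies have 21 distinct counterparts, of which levy, cype and sun lie outside the 63 main subunits. Of the 21, 13 had a pooled promoter summit, cype and sun among them, against 1 of the 23 copies. The counterpart of that copy, COX6AL, is levy, which had none. A few copies lie beside their counterparts, and the gap between the genes was 122 bp for COX5B and COX5BL, 281 bp for COX7C and COX7CL and 2625 bp for COX7A and COX7AL. By complex, the pooled promoter counts of the main subunits were 17 of 34 for complex I, 3 of 4 for complex II, 3 of 6 for complex III, 6 of 8 for complex IV and 6 of 11 for complex V. The pooled share over all protein-coding genes was 40.4%, and the counts by complex rest on few genes. How much of the contrast between copies and main subunits reflects the tissues in which the copies are active was not tested, since no expression was measured.

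Promoter words were counted from 250 bp before to 50 bp after the outermost start, on both strands, beside the share of all 13945 protein-coding promoters of that length. The word that stood out was GGTCACACT, the core of the site of the zinc-finger factor M1BP, which marks many constitutively expressed Drosophila promoters. It lay in 14 of 63 main subunit promoters (22.2%), 1 of 23 copies (4.35%) and 6.05% of all promoters. The 14 genes were ND-13A, ND-18, ND-ACP, ND-B14, ND-B17, ND-MWFE, ND-PDSW, UQCR-6.4, COX4, COX5A, COX5B, COX7B, ATPsynC and ATPsynD, and the copy was COX7AL. A match is a description and says nothing of whether the factor was bound. The M1BP word holds GGTCA, and 1 of the 15 matches was preceded by A and so overlapped AGGTCA. Examples are given with the word in capitals, 100 bases each ending at base 10 of the gene, from 2L:19958623-19958722 for COX4 (plus strand), X:19492331-19492430 for ND-18 (plus) and 2L:15751069-15751168 for ND-B17 (minus).
COX4: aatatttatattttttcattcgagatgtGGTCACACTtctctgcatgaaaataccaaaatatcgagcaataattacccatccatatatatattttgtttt
ND-18: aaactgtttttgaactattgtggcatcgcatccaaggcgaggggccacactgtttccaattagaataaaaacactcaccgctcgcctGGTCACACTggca
ND-B17: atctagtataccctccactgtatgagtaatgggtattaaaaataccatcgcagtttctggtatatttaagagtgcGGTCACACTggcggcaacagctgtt
In COX4 the word begins 62 bp before the start and has a weak summit of the pooled list 14 bp before the start, and in ND-18 and ND-B17 it begins 3 and 15 bp before the start.

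Main subunits with the M1BP word had a pooled promoter summit in 10 of 14 cases (71.4%), and those without it in 25 of 49 (51%). Over all protein-coding genes the shares were 61.4% of 843 with the word and 39.1% of 13102 without. The word was seldom under the summits themselves, lying within 100 bp of 0 of the 12 strong promoter summits of respiratory genes and 1.6% of the 2991 of all protein-coding genes.

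The receptor's own sites were rare at these promoters, as they were at all protein-coding promoters. An EcR/Ultraspiracle inverted repeat with at most 1 mismatch lay in 1 of 86 promoters (1.16%), that of SdhA, against 0.588% of all, and its centre lay 16 bp from the stronger SdhA summit. It was the only 1 of the 12 strong promoter summits with such a match within 100 bp, against 2.31% of the 2991 for all genes. The single hexamer AGGTCA lay in 5 promoters (5.81%, all promoters 5.88%) and near 0 of the 12 summits (all 5.82%). At the SdhC summit upstream of the gene the hexamer capitalised in the sequence was centred 5 bp from the highest point. Another was centred 59 bp from that point, and a further one 70 bp from the second SdhC summit upstream. Among the weak promoter summits, an inverted repeat with 1 mismatch was centred 91 bp from that of ND-13B. AGGTCA was centred 30 bp from the weak summit of ND-B8. No match says only that these letters are not in the window.

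The nuclear respiratory gene element (TTACATAA, TTACGTAA, TTATATAA or TTATGTAA) lay in 5 promoters (5.81%, all 5.18%) and near 0 of the 12 summits (all 2.21%). All 5 were main subunits of complex I. Farther downstream than this window, it also lay within 100 bp of weak promoter summits of ATPsynG and ATPsyngamma of complex V and ND-B14.7 of complex I. TATCGATA, the DNA replication-related element, lay in 9 promoters (10.5%, all 9.36%), all of them among the 63 main subunits (14.3%). It lay near 0 of the 12 summits (all 2.17%), but within 100 bp of the weak promoter summits of ND-15, ND-B14.5A, ND-MNLL, UQCR-14 and COX4. How often these words lay near the weak summits of all genes was not counted. The E-box CACGTG lay in 4 promoters (4.65%, all 4.2%) and near 1 of the 12 summits (all 2.67%), that of COX7C. GAGAG lay in 10 of 63 main subunit promoters (15.9%), 9 of 23 copies (39.1%) and 29.7% of all promoters, so that main subunits and copies stood on opposite sides of the background, and near 5 of the 12 summits (all 41.7%). The palindromic word of NRF-1 in mammals, whose fly relative is erect wing (ewg), lay in 0 promoters (all 0.724%).

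Other gene groups, listed by symbol, put these shares in context. Mitochondrial ribosomal protein genes had a strong promoter summit in 13 of 73 cases (17.8%, replicate mean 16.9% ± 1.58, SD, n = 3), proteasome genes in 8 of 48 (16.7%, 13.9% ± 6.01) and genes of the vacuolar proton pump in 3 of 33 (9.09%, 10.1% ± 1.75). Their pooled shares were 39.7%, 50% and 36.4%. In replicates 1, 2 and 3 the respiratory shares were 6.98%, 11.6% and 8.14%. They were lower in each than the mitochondrial ribosomal (15.1%, 17.8% and 17.8%) and proteasome shares (10.4%, 20.8% and 10.4%). The vacuolar pump shares were 12.1%, 9.09% and 9.09%, lower than the respiratory one in replicate 2 only. The copies, with 0 of 23, lower the respiratory share, and main subunits alone had 9 of 63 (14.3%, 11.6% ± 2.42). No test was made between these groups, and genes are not replicates.

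Other genes of the chain whose symbols fall outside the rule, which include the mobile carrier cytochrome c, had strong promoter summits at 3 of 10: cype (complex IV, rank 5238), blw, the alpha subunit of the ATP synthase (5313), and Cyt-c-d, a cytochrome c gene (6196). Assembly and import factors had 3 of 12, led by Coa7 at rank 1208, then CIA30 (3525) and Sirup (5827). Citrate cycle genes had 4 of 13, led by Fum1 (3545), which shares its peak with ND-ASHI, ScsbetaA (4601) and Scsalpha1 (5087). Regulators of mitochondrial biogenesis and mitochondrial DNA had the highest count, 6 of 11, led by cnc (1442), TFAM (3236), which packages mitochondrial DNA, and mtSSB (3696), with 5, 5 and 6 of the 11 in the replicates' own lists. Mitochondrial dynamics genes had 0 of 5 in the optimal list and 4 in the pooled list. These lists are short, and their counts are descriptions. They are read beside the shares of all protein-coding genes, 19.3% in the optimal list and 40.4% in the pooled list.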

How the data were processed

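The 3 replicates came from separate biosamples of the EcR-GFP line, per the labels. Per the deposited notes, replicate and pooled peak lists were derived from alignments to dm6 with a control alignment, and the optimal list from those by the irreproducible discovery rate. The control was not analysed here. No source read here names the caller or aligner or gives read numbers, so the depth is unknown and intervals for counting error cannot be stated. The signal value of each peak, as deposited by the authors, served to order the peaks of each list. Every optimal peak carried a deposited −log10 q-value of 4.55, the highest present.

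Summits were matched to gene starts of Ensembl 115 in Python 3.11.15 with numpy 2.4.6 and scipy 1.17.1. Promoter means within 500 bp of any annotated start, and gene region means body plus 2 kb upstream. Replicate peaks matched within 100 bp. Motifs were read from the RefSeq Release 6 genome. The counting was tested on simulated data. Named were all genes with a strong promoter summit, up to 10 with the strongest weak one, up to 10 with region summits only, and up to 3 of each other list; genes named beyond these, by subunit role, by distance from a summit or by motif, were chosen after their values were seen. Of 55 listed symbols 51 matched. The genes, lists and division into main subunits and copies were chosen with earlier results of these data known.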

Additional observations from a re-analysis of the deposited data

How the results depend on the processing

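The promoter count of 9 respiratory genes was 6, 10 and 7 in the replicates' own lists, 4 among the 4547 strongest optimal peaks, 36 in the pooled list, 2 and 4 where a strong summit had to lie within 50 or 200 bp in all 3 replicates, and 4 to 4 without a replicate. The region count of 15 became 9 among the 4547 strongest, 45 in the pooled list, 7 for the nearest start only, 7 with the 50 bp match, 6 for the gene body only and 45 (52.3%, all genes 51.9%) for the body plus 5 kb on both sides. Without a replicate it was 10 to 11. In the order strongest peaks, pooled list, the counts were 1 and 17 for complex I, 1 and 7 for complex IV and 1 and 6 for complex V. The pooled list gave 3 for complex II and 3 for complex III. Complex I had 1 within 250 bp, 1 by nearest start, 0 with the 50 bp match, 0 with the 200 bp match and 0 to 1 without a replicate. Complex II had 2 within 1000 bp. Complex IV had 1 and 2 in the own lists of replicates 1 and 3, 1 with either match and 1 to 1 without a replicate. Complex V had 1 by nearest start, 0 with the 50 bp match and 1 to 2 without a replicate. The share difference was -8.54 points within 250 bp, -11.5 within 1000 bp and -6.33 against genes with regions of up to 10 kb. The inverted repeat lay in 0 promoters with 0 mismatches allowed and in 5 with 2. Of alternatives chosen after seeing the data, the 35 main subunits of the pooled list became 19 (30.2%, all genes 29.1%) in its stronger 15000 peaks, where the excess over all genes was lost. They became 31 (49.2%, all genes 37.4%) with a −log10 q of at least 2. Within 250 bp they became 34 (54%, all genes 35%), and by nearest start 27 (42.9%, all genes 35%). The 1 copy became 0 within 250 bp. The causes were not tested. No paired analysis was possible because there is 1 group only, so no groups share replicate numbers, and the share difference was instead taken within each replicate.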
